A study of Mus musculus with 5 samples.

Results

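The 10 genes described here, Elf5, Cdx2, Ascl2, Bmp8b, Rhox6, Rhox9, Esx1, Tfap2a, Sox21 and Ets2, mark the extra-embryonic ectoderm (ExE), and were chosen by name from the 49671 genes of the count table. All 10 had a row of their own, and each had at least 1 read in both SO+ embryos. RNA was sequenced from 2 SO+ and 3 SO− single embryos of mixed background, taken after implantation and before the mutants differ in shape, and every sample was epiblast with visceral endoderm (VE), the ExE having been cut away and used for genotyping. SO+ embryos had the genotype Sox2Cre-/-; Oct4 fl/+ and SO− embryos Sox2Cre+/-; Oct4 fl/-, so that all embryos carried a floxed allele, only SO− embryos carried the null allele, and Cre was present in SO− embryos alone. The Cre transgene is driven by the Sox2 promoter and acts mainly in the epiblast. The question asked of these 10 genes was how much ExE RNA each dissected sample still held, and whether it differed between genotypes.

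The ExE is the part of the trophoblast that lies against the epiblast in the early postimplantation embryo. It houses trophoblast stem cells, which are kept by FGF signals from the epiblast and by a network of transcription factors that includes Cdx2, Elf5, Eomes, Esrrb, Tfap2c and Ets2. In return the ExE secretes BMP4 and BMP8B, which act on the proximal epiblast and on the VE. Several of its markers are not restricted to it. Cdx2 is also used in the posterior embryo, Tfap2a in surface ectoderm and neural crest, Sox21 in the anterior neural plate, the Rhox genes in germ cells, and Ets2 in many tissues.

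Total counts were 27538119 and 27047148 in SO+ embryos 1 and 2 and between 1117566 and 4191498 in the SO− embryos, a 24.6-fold range. The second index in the library names also differed between genotypes, so that depth, index and genotype cannot be told apart. Levels are given as counts scaled to 1000000 reads assigned to genes (CPM), and intervals are exact 95% Poisson intervals that cover counting error only, since the library method attaches no molecular identifiers. A count of 3 corresponded to 0.109 and 0.111 CPM in SO+ embryos 1 and 2 and to 0.726, 2.68 and 0.716 CPM in SO− embryos 1, 2 and 3. Pou5f1, which encodes Oct4, was at 920.2 and 435 CPM in the SO+ libraries and at 27.8, 12.5 and 43.7 CPM in those labelled SO−, lower in each of these. Ddx3y, Eif2s3y, Kdm5d and Uty, on chromosome Y, had reads in all 5 libraries, from 3.70 CPM upwards, which bears on the X-linked markers. Xist, on chromosome X, lay between 1.21 and 18.6 CPM and was highest in SO− embryo 3.

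Reads of the markers could be placed on 1 gene along most of their length. Of all 100-base windows of their GENCODE M21 transcripts, none was found in another gene's transcript for Elf5, Cdx2, Ascl2, Esx1 and Ets2. The homeobox genes Rhox6 and Rhox9 are neighbours on chromosome X and shared 62 windows, 6.81% of those of Rhox6 and 2.45% of those of Rhox9. These windows came from a single identical run of 161 bases inside the coding part of exon 2 of both genes, at chrX:37827450-37827610 on the plus strand for Rhox6 and chrX:37901167-37901327 on the minus strand for Rhox9 (GRCm38). Reads inside this run cannot be told apart between the genes, and it is shown because the levels of both rest on the remaining sequence:
Rhox6 and Rhox9: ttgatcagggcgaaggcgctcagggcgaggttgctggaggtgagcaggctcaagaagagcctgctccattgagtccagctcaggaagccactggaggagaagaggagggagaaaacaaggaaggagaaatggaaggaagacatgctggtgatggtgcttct
Windows of Bmp8b (6.56%), Tfap2a (6.24%) and Sox21 (16.6%) were shared with antisense transcripts, namely Gm17244, Gm26688 and Gm4675, and those transcripts had at most 4 reads in any embryo. Reads from a gene and its antisense partner cannot be told apart if strand was not used in counting.

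The promoters of 8 of the 10 markers, 10 sequences in all, were found in the RefSeq table (GRCm38.p6; 250 bases before to 50 after the start site). The letters ATGCAAAT, the octamer to which Oct4 and other POU factors bind, were searched on both strands and occurred in 1.74% of 32851 promoters. Among the marker promoters they occurred in that of Cdx2 alone, 147 bases before the start site. This promoter (chr5:147307200-147307499, minus strand) is shown with the octamer in capitals, since Oct4 is the gene deleted:
Cdx2: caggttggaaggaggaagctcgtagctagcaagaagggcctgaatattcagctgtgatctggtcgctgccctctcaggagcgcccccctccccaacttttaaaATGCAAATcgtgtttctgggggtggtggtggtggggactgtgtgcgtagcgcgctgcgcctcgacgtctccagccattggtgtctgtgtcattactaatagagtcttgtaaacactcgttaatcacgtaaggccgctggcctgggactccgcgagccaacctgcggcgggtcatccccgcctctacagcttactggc
Letters for other factors of this tissue were also searched on both strands. CATTCC (TEAD, in 14.7% of promoters) was found in 1 of the 2 Elf5 promoters, TTTATG (CDX, in 11.9%) in the other Elf5 promoter and in 1 of the 2 Tfap2a promoters, and GCCNNNGGC (AP-2, in 16.6%) in those of Cdx2 and Sox21. TATAAA (in 13.6%) was found in none. Ascl2 and Bmp8b, which were high in the same embryos, had promoters without any of these letters and with 23 CpG sites each. The promoters of Esx1 and Ets2 held none of these letters either. The median number of CpG sites over all promoters was 7, and Esx1, Sox21 and Ets2 had 24, 22 and 30. Neither trait was thus particular to the pair. Their promoters lie at chr7:142969215-142969514 on the minus strand and chr4:123104911-123105210 on the plus strand, and are shown with each CG in capitals:
Ascl2: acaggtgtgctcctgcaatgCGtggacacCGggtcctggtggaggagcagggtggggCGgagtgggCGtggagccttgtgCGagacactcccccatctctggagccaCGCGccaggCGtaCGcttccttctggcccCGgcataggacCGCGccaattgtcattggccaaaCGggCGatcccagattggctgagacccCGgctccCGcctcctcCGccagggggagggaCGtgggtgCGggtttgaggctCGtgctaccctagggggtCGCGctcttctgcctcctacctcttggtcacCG
Bmp8b: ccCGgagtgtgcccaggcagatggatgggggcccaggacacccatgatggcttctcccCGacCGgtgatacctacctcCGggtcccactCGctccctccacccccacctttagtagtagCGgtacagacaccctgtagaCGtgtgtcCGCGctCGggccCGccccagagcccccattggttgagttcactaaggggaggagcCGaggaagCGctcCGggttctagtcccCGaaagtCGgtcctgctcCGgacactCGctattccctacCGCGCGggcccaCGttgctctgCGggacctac
A match of letters is a description of the sequence, and binding and methylation were not measured in these embryos.

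The markers differed widely in level. Divided by the length of their exons, mean levels over the 5 embryos were 6.32 CPM per kb for Ets2, 4.63 CPM per kb for Rhox6, 2.35 CPM per kb for Cdx2 and 1.54 CPM per kb for Ascl2. The other 6 followed with 0.383 (Esx1), 0.382 (Sox21), 0.310 (Bmp8b), 0.283 (Tfap2a), 0.116 (Elf5) and 0.0562 (Rhox9) CPM per kb. All 9 pairs of neighbours in this order had overlapping ranges over the embryos, although Ets2 was above Rhox6, and Rhox6 above Cdx2, in 4 of 5 embryos each. Elf5, a factor that keeps cells in the trophoblast lineage, and Rhox9 were the lowest on this scale.

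Genotypes were compared by edgeR's quasi-likelihood test over 12067 genes with enough counts, with Benjamini-Hochberg adjustment and a threshold of 0.05. Cdx2, Ascl2, Bmp8b, Rhox6 and Ets2 had enough counts, and Elf5, Rhox9, Esx1, Tfap2a and Sox21 did not. None of the 5 tested markers was differentially expressed at an adjusted p under 0.05, where 2.35% of all tested genes were, so that a count of 0 among 5 was near the background. At an unadjusted p under 0.05 the count was also 0 of 5, where 13.7% of all tested genes passed. DESeq2 gave an adjusted p for 9 markers and called none, beside 2.54% of all genes it adjusted, and 1 of them, Tfap2a, had an unadjusted p under 0.05. The tested markers had a median log2 fold change (SO− over SO+) of −0.25, beside −0.00187 over all tested genes, with 4 lower and 1 higher in SO−. The 5 without enough counts had DESeq2 log2 fold changes of 2.96 (Elf5), 3.05 (Tfap2a), 1.71 (Sox21), 0.13 (Esx1) and −2.35 (Rhox9). The direction of the tested 5 is thus not that of all 10 markers. None of the tested 5 had CPM values that were separate between genotypes, against 29.5% of all tested genes. Their standard errors (SE) ranged from 0.18 to 1.03 on the log2 scale, and a p that misses the threshold does not show equal levels. The p-values measure the spread between these embryos.

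**Figure D1:**
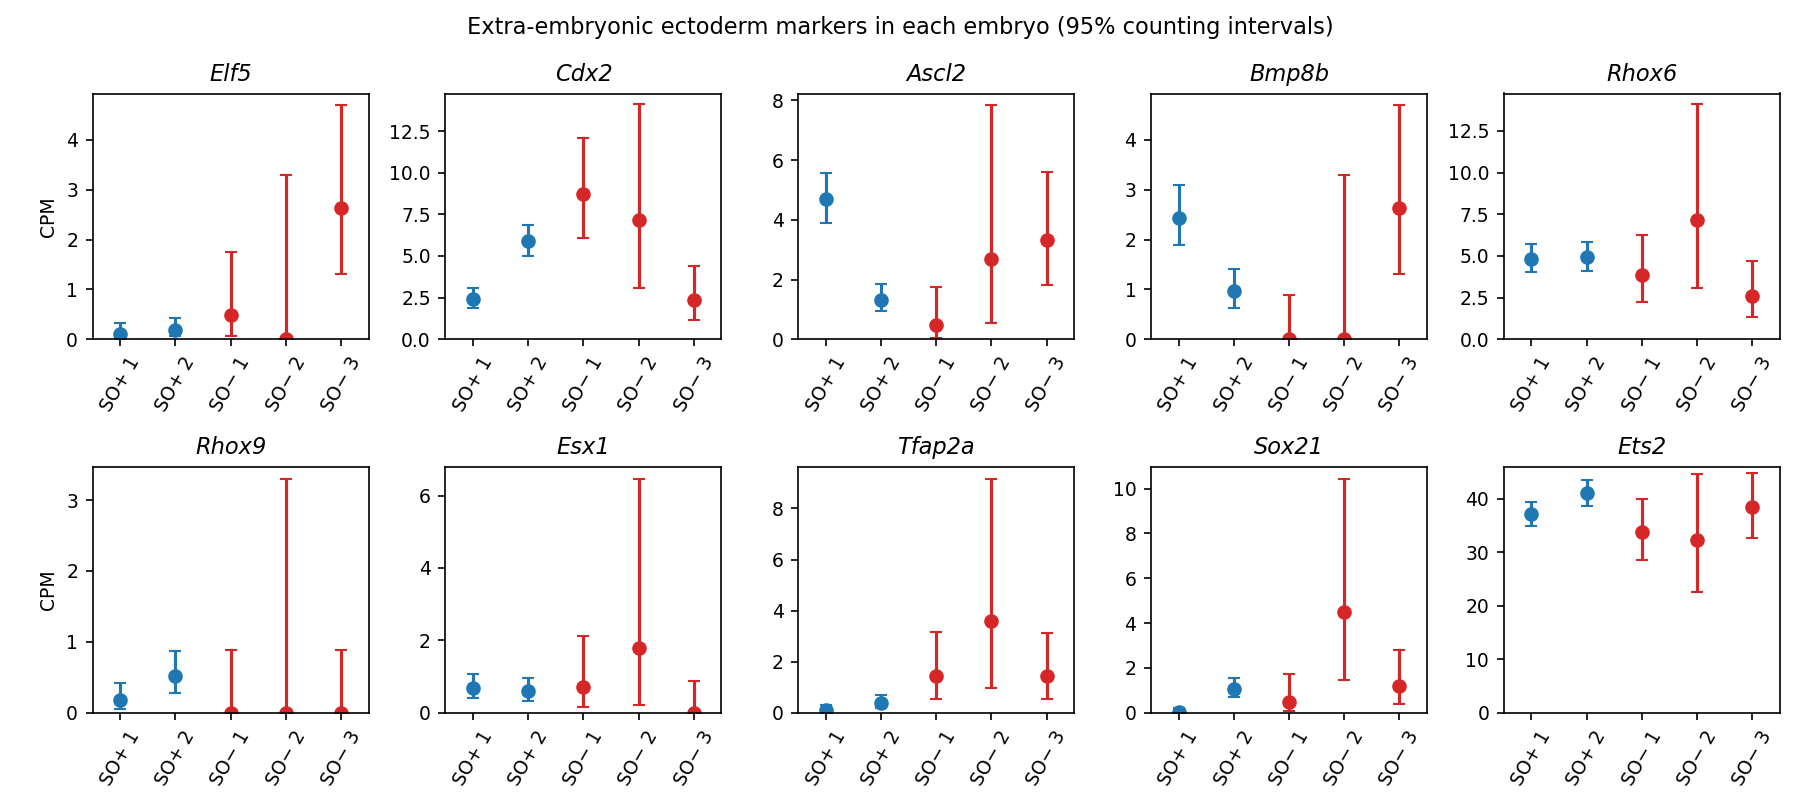
Level in CPM (y axis, linear, a separate scale for each gene) of the 10 ExE markers in SO+ embryos 1 and 2 (blue) and SO− embryos 1, 2 and 3 (red), with exact 95% Poisson intervals for counting error. Ascl2 and Bmp8b were high in SO+ embryo 1 and SO− embryo 3, Cdx2 was low in the same 2 embryos, and Ets2 hardly varied.

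Cdx2, a homeobox factor needed for trophectoderm and trophoblast stem cells, had 2.43 CPM and 5.88 CPM in SO+ embryos 1 and 2 and 8.71, 7.16 and 2.39 CPM in SO− embryos 1, 2 and 3. SO+ embryo 1 and SO− embryo 3 were low and almost equal, the other embryos were higher, and the genotypes overlapped. The log2 fold change was 0.51 (edgeR, SE 0.60, adjusted p = 0.801), and it was −0.035 without SO− embryo 1. Ets2, an ETS factor of trophoblast stem cells that is also expressed in many other tissues, had 37.1 and 41.0 CPM in the SO+ libraries, against 33.9, 32.2 and 38.4 CPM in SO− embryos. It varied little between embryos, with a 1.10-fold range within SO+ and a 1.19-fold range within SO−. Its log2 fold change was −0.14 (edgeR, SE 0.18, adjusted p = 0.824). Elf5 had 3 and 5 reads in the SO+ embryos and 2, 0 and 11 reads in the SO− embryos, or 0.109, 0.185, 0.484, 0 and 2.62 CPM. Only SO− embryo 3 (interval 1.31 to 4.70 CPM) stood above both SO+ embryos beyond counting error (upper bounds 0.318 and 0.431 CPM), while 0 of 1117566 reads in SO− embryo 2 has an upper bound of 3.30 CPM.

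Ascl2, a basic helix-loop-helix factor of the ExE and ectoplacental cone, had 4.68 CPM and 1.33 CPM in SO+ embryos 1 and 2 and 0.484, 2.68 and 3.34 CPM in SO− embryos 1, 2 and 3. The SO+ embryos differed 3.52-fold, with intervals (3.91 to 5.57 and 0.932 to 1.84 CPM) that did not meet, and SO− embryo 1 (0.0586 to 1.75 CPM) lay below SO− embryo 3 (lower bound 1.83 CPM). The difference between embryos of one genotype was therefore larger than counting error, and the genotypes overlapped. The log2 fold change was −0.53 (edgeR, SE 0.79, adjusted p = 0.861), and it became 0.63 without SO+ embryo 1 and 0.048 without SO− embryo 1. Bmp8b, a BMP ligand made by the ExE, had 67 and 26 reads in the SO+ embryos and 0, 0 and 11 reads in the SO− embryos. These correspond to 2.43, 0.961, 0, 0 and 2.62 CPM, so that SO− embryo 3 was as high as SO+ embryo 1. The count of 0 in SO− embryo 1 has an upper bound of 0.892 CPM, below the interval of SO− embryo 3 (1.31 to 4.70 CPM), whereas the 0 in SO− embryo 2 has one of 3.30 CPM and separates it from no other embryo. The log2 fold change of Bmp8b was −0.62 (edgeR, SE 1.03, adjusted p = 0.881), and it was 0.16 without SO+ embryo 1, −7.67 without SO− embryo 3 (a fitted value against counts of 0, not a bound) and 0.042 without SO− embryo 1.

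Rhox6, Rhox9 and Esx1 are X-linked homeobox genes of trophoblast. Rhox6 had 4.83 and 4.92 CPM in the SO+ libraries, against 3.87, 7.16 and 2.62 CPM in the SO− embryos. The SO+ embryos were nearly equal and lay inside the range of the SO− embryos. The log2 fold change was −0.25 (edgeR, SE 0.52, adjusted p = 0.910), and 0.048 without SO− embryo 3, the lowest. Esx1 had 19, 16, 3, 2 and 0 reads in SO+ embryos 1 and 2 and SO− embryos 1, 2 and 3, or 0.690, 0.592, 0.726, 1.79 and 0 CPM. The 5 intervals of Esx1 overlapped, the highest lower bound being 0.415 CPM, so no difference between embryos was detectable at this depth. Rhox9 had 5 and 14 reads in the SO+ embryos (0.182 and 0.518 CPM) and none in the SO− embryos. The SO− libraries together held 9443681 reads, in which 0 reads has an exact upper bound of 0.391 CPM, above the 0.348 CPM of the pooled SO+ libraries. Each SO− value was below both SO+ values, but this bound does not place SO− below the SO+ level at this depth. Of 40 other Rhox genes, 32 had no read in any embryo, and Rhox5, a homeobox gene expressed in VE as well as in ExE, was between 96.4 and 146 CPM (log2 fold change 0.31 by edgeR, SE 0.14, adjusted p = 0.346). The remaining 7, Rhox1, Rhox4b, Rhox4c, Rhox4e, Rhox4g, Rhox7-ps1 and Rhox8, had at most 6 reads in any embryo.

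Tfap2a and Sox21 are transcription factors that the ExE shares with ectoderm of the embryo. Tfap2a, an AP-2 factor of trophoblast and of surface ectoderm, had 3 and 10 reads in the SO+ embryos and 6, 4 and 6 reads in the SO− embryos, or 0.109, 0.370, 1.45, 3.58 and 1.43 CPM. All 3 SO− embryos were above both SO+ embryos. Of all tested genes, 29.5% were separate between genotypes in either direction, but these have more reads than Tfap2a, which was not among them. A count of 3 already corresponded to 0.716 CPM or more in an SO− library, above the 0.370 CPM of SO+ embryo 2. Summed over each genotype, Tfap2a was at 0.238 CPM in SO+ against 1.69 CPM in SO−, a ratio of 7.11 (95% interval for counting error 3.21 to 16.1). That interval leaves out the spread between embryos, so it is not a test of genotype. The same ratio was 9.39 (3.61 to 26.1) for Elf5, which had 11 reads in SO− embryo 3 and 2 and 0 in SO− embryos 1 and 2. Tfap2a had too few reads for edgeR's filter, and without that filter its log2 fold change was 2.97 (edgeR, SE 1.28, adjusted p = 0.437), with 3.05 and an adjusted p of 0.192 from DESeq2. Sox21, a SoxB2 factor of the ExE and of neural progenitors, had 1 and 29 reads in the SO+ embryos and 2, 5 and 5 reads in the SO− embryos. Its levels were 0.0363, 1.07, 0.484, 4.47 and 1.19 CPM, so that the SO+ embryos differed 29.5-fold from each other and SO+ embryo 2 lay within the SO− range. Without the filter its log2 fold change was 1.58 (edgeR, SE 1.33, adjusted p = 0.787).

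The markers did not move together over the embryos. Centred on its own mean on the log2(CPM + 1) scale, Bmp8b was at 0.86 in SO+ embryo 1 and 0.94 in SO− embryo 3, and Ascl2 at 0.85 and 0.46. Cdx2 was at −0.75 and −0.77 in those embryos and at 0.75 in SO− embryo 1, where Ascl2 was at −1.09 and Bmp8b at −0.92. Cdx2 and the pair Ascl2 and Bmp8b were thus at opposite ends in SO+ embryo 1, SO− embryo 1 and SO− embryo 3. Tfap2a, Sox21 (1.40), Rhox6 and Esx1 had their highest values in SO− embryo 2, the library with the fewest reads. Rhox6 and Esx1 had the most similar profiles of any pair (Euclidean distance 0.365 over 5 embryos), closely followed by Rhox9 and Ets2 (0.370), and Ascl2 and Bmp8b were 1.34 apart. These distances are descriptions, and 5 of the markers had at most 29 reads in any embryo.

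**Figure D2:**
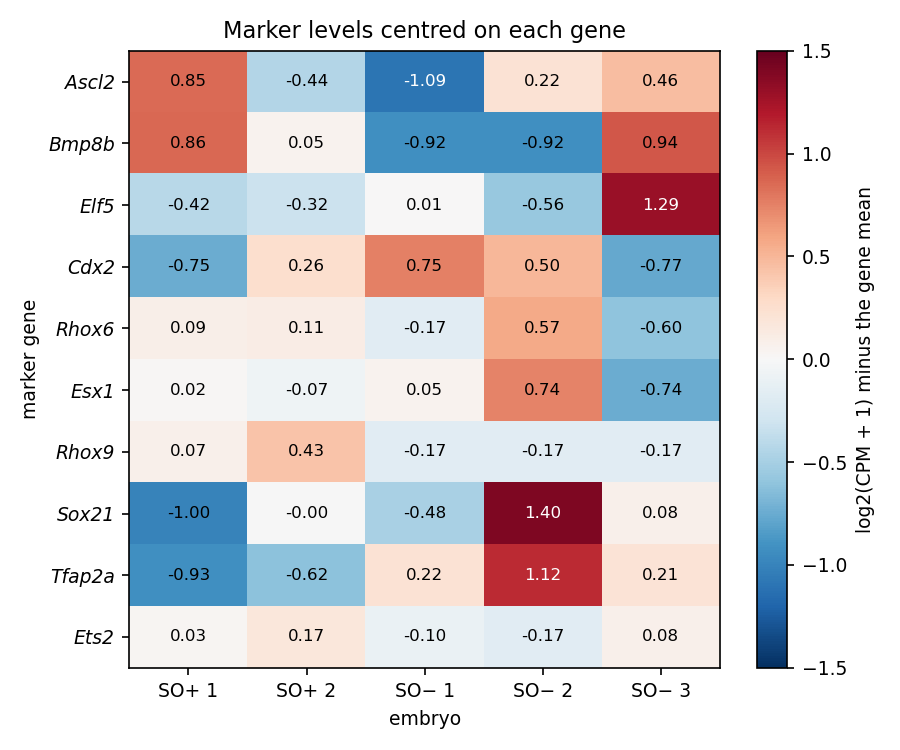
Level of each ExE marker (rows) in each embryo (columns) on the log2(CPM + 1) scale with the gene's mean over the 5 embryos subtracted (colour and printed values). Ascl2 and Bmp8b were above their mean in SO+ embryo 1 and SO− embryo 3, where Cdx2 was at −0.75 and −0.77, and Ets2 stayed between −0.17 and 0.17.

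Summed over the 10 markers, the level was nearly equal in all embryos. It was 52.6 CPM (exact 95% binomial interval 49.9 to 55.4) and 56.8 CPM (54.0 to 59.7) in SO+ embryos 1 and 2. In SO− embryos 1, 2 and 3 it was 50.1 CPM (43.5 to 57.4), 59.1 CPM (45.7 to 75.1) and 54.6 CPM (47.8 to 62.2), so that the genotypes overlapped and the lowest embryo had 0.848 times the level of the highest. Ets2 made up between 54.5% and 72.2% of this sum. Without Ets2 the sum was 15.5 and 15.8 CPM in the SO+ libraries, against 16.2, 26.8 and 16.2 CPM in SO− embryos, the intervals of SO− embryos 1 and 3 (12.6 to 20.6 CPM each) containing both SO+ values. SO− embryo 2 (18.1 to 38.3 CPM, from 30 reads) was the one that stood above the SO+ embryos. The ratio of the genotype means (SO− over SO+) was 0.998 with Ets2 and 1.26 without it. The equal sums hid unequal parts: Cdx2 supplied 17.4% of the sum in SO− embryo 1 and 4.37% in SO− embryo 3, whereas Bmp8b supplied 0% and 4.80%. The files hold no sample of ExE itself, so these levels cannot be turned into a share of ExE cells, and fewer cells cannot be told apart from less RNA per cell.

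**Figure D3:**
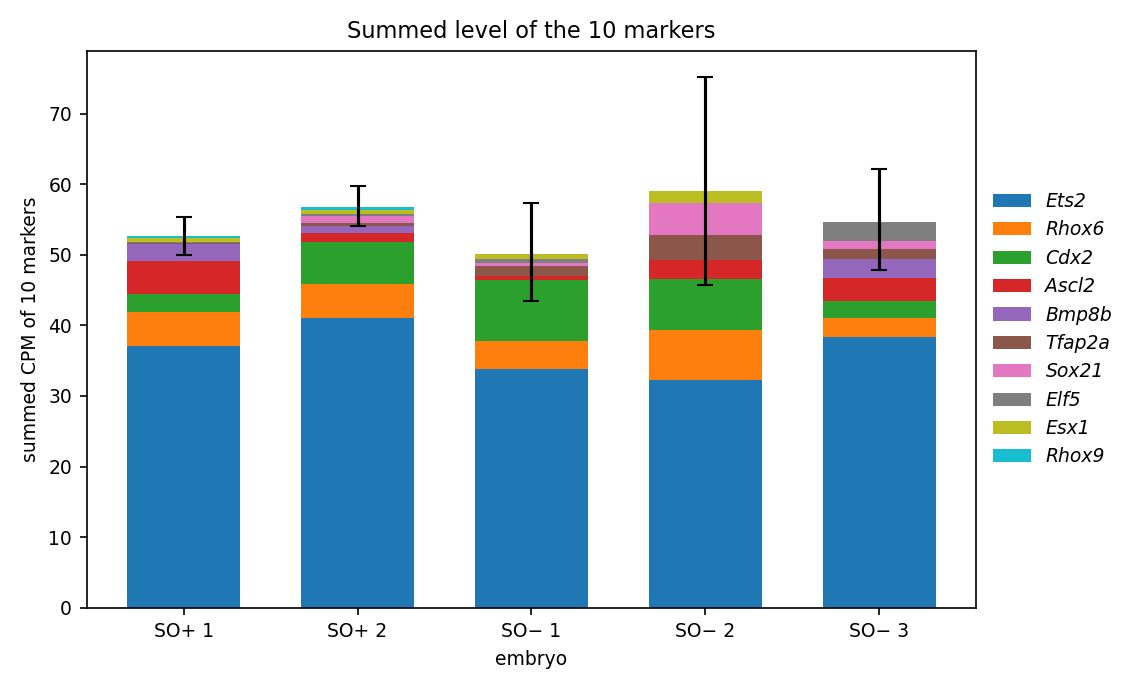
Summed level in CPM (y axis, from 0) of the 10 ExE markers in each embryo (x axis), stacked by gene, with the exact 95% binomial interval of the sum. The sums lay between 50.1 and 59.1 CPM in all 5 embryos, and Ets2 formed the largest part of each.

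A list of 13 other ExE and trophoblast stem cell genes was examined beside the markers. Of 10 tested, 1 passed the test, higher in SO− (1.42% of all tested genes were called in that direction), 9 had a log2 fold change above 0, and the median log2 fold change was 0.42. The summed level was 353 and 411 CPM in SO+ embryos 1 and 2 and 446, 522 and 449 CPM in SO− embryos 1, 2 and 3, higher in all SO− embryos, unlike that of the 10 markers. Without Eomes, its largest part, it was 144 and 159 CPM in SO+ and 231, 244 and 222 CPM in SO−. The gene that passed was Id2, an inhibitor of helix-loop-helix factors and a common target of BMP signals, which rose from 44.3 ± 0.305 CPM in SO+ (SD, n = 2) to 77.5 ± 7.55 CPM in SO− (SD, n = 3). Its log2 fold change was 0.82 (edgeR, SE 0.15, adjusted p = 0.0120), and its adjusted p was 0.177 without SO− embryo 1 and 0.115 without SO− embryo 2. Eomes, which is shared by trophoblast, epiblast and VE, was at 209 and 252 CPM in SO+ and 214, 277 and 228 CPM in SO− (log2 fold change 0.046, adjusted p = 0.938 from edgeR). Esrrb, a nuclear receptor of trophoblast stem cells, had 27 and 8 reads in the SO+ embryos and 2, 0 and 1 in the SO− embryos. Its levels of 0.981, 0.296, 0.484, 0 and 0.239 CPM placed SO+ embryo 1 first, as for Ascl2. Tfap2c (log2 fold change 0.20, adjusted p = 0.936 from edgeR) and Tead4 (0.28, adjusted p = 0.886) did not pass either. Gata3, a zinc-finger factor of trophoblast and of surface ectoderm, had 0.726 and 1.18 CPM in SO+, with 2.66, 10.7 and 3.82 CPM in SO− embryos, without overlap (log2 fold change 2.39 by edgeR, SE 0.76, adjusted p = 0.148). Bmp4, made by the ExE and later by extra-embryonic mesoderm, had 4.43 and 3.85 CPM in SO+, with 10.6, 16.1 and 5.25 CPM in SO− embryos (log2 fold change 1.27, adjusted p = 0.242 from edgeR).

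Of 11 genes of the ectoplacental cone and trophoblast giant cells, 7 had no read in any embryo. These were Tpbpa, Prl3d1, Prl2c2, Prl3b1, Gcm1, Synb and Ctsq, among them markers of spongiotrophoblast, giant cells and syncytiotrophoblast. No separate trophoblast of this stage was sequenced, so whether these genes were already expressed there was not tested. Of the 2 tested, 1 passed, higher in SO− embryos, the direction in which 1.42% of all tested genes were called. Hand1, a helix-loop-helix factor of giant cells and also of extra-embryonic mesoderm, rose from 1.91 ± 1.16 CPM in SO+ (SD, n = 2) to 16.5 ± 6.64 CPM in SO− (SD, n = 3). On the log2 scale this was 3.04 (edgeR, SE 0.52, adjusted p = 0.00754). Hand1 lost the threshold without SO− embryo 1 (adjusted p = 0.0783) and without SO− embryo 2 (0.128, both from edgeR). Plac1, an X-linked gene of trophoblast, had 3.63 and 5.03 CPM in the SO+ libraries, against 6.29, 8.95 and 1.91 CPM in SO− embryos, with overlap. Elf5, Cdx2, Ascl2, Bmp8b and Esrrb overlapped between genotypes as well. Of the 10 markers and the 13 other ExE genes, Tfap2a, Gata2, Gata3, Id2, Bmp4, Furin and Cdh3 were higher in SO− without overlap. Rhox9 was lower in SO− without overlap, and the rest overlapped. Over all tested genes, which leave out Tfap2a, Gata2 and Rhox9, 29.5% were separate in either direction.

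**Figure D4:**
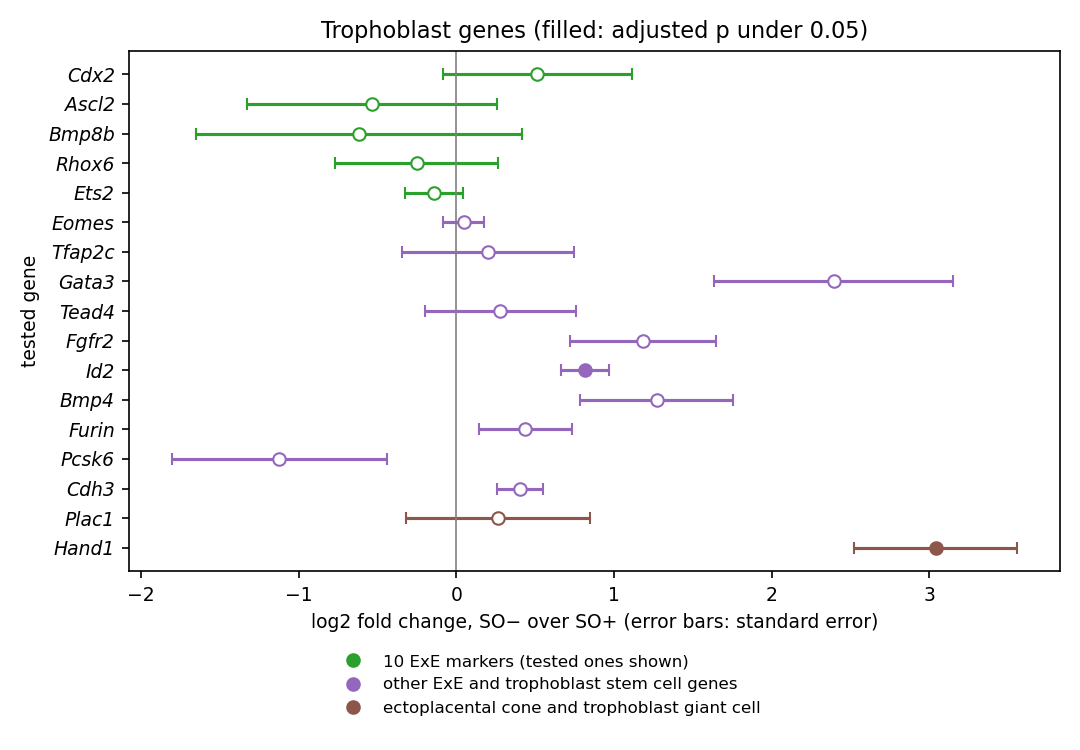
Log2 fold change (x axis, SO− over SO+) with its standard error for the tested genes of 3 trophoblast lists (y axis): the ExE markers, other ExE and trophoblast stem cell genes, and ectoplacental cone and giant cell genes. Filled points (Id2 and Hand1) had an adjusted p under 0.05 from edgeR, and the 5 ExE markers shown lay between −0.62 and 0.51.

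Tissues in which the markers are also used were examined in the same way. In the posterior embryo, where Cdx2 is active, T (brachyury) had 38.7 and 35.5 CPM in SO+, with 82.7, 55.5 and 32.9 CPM in SO− embryos (log2 fold change 0.63, adjusted p = 0.344 from edgeR). Evx1, the other tested gene of this list, had 23.9 and 24.4 CPM in SO+ embryos 1 and 2 and 20.1, 51.9 and 32.2 CPM in SO− embryos 1, 2 and 3. SO− embryo 1, the highest for Cdx2, was thus the highest for T and the lowest for Evx1, and neither gene was called. Surface ectoderm and amnion genes summed to 1.05 and 2.18 CPM in SO+ and to 8.47, 8.05 and 5.73 CPM in SO− embryos, without overlap, as for Tfap2a. These sums rest on 29 and 59 reads in SO+ and on 35, 9 and 24 reads in SO−. Of single tested genes, 29.5% were separate between genotypes in either direction. Grhl3, the highest gene of this list, made up 44.4% to 86.4% of each sum. Its log2 fold change was 1.77 (edgeR, SE 0.63, adjusted p = 0.202). Anterior neural genes, beside Sox21, summed to 4.32 and 4.62 CPM in SO+ and to 10.9, 8.95 and 11.5 CPM in SO− embryos, with Hesx1 the highest on average and Six3 at a log2 fold change of 2.37 (adjusted p = 0.0894 from edgeR). Those sums rest on 119 and 125 reads in SO+ and on 45, 10 and 48 reads in SO−. Of 3 tested germ cell genes, beside the Rhox genes, Prdm1 passed (1.42% of all tested genes were called higher) and rose from 6.95 ± 1.25 CPM in SO+ (SD, n = 2) to 34.5 ± 11.8 CPM in SO− (SD, n = 3). On the log2 scale this was 2.27 (edgeR, SE 0.31, adjusted p = 0.00201). Its adjusted p was 0.0648 without SO− embryo 1 and 0.0820 without SO− embryo 2 (edgeR). Prdm1 is also expressed in VE, and the part of these tissues in the marker levels was not tested.

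The listed markers of the tissues kept in the dissection had higher summed levels than the 10 ExE markers. The lists hold different genes, among them abundant ones such as Apoa1 and Dnmt3b, so their sums do not compare amounts of tissue. The list of 13 other ExE and trophoblast stem cell genes, for example, summed to between 353 and 522 CPM. Summed over 12 genes, VE markers were at 3188 and 3580 CPM in SO+, with 4889, 4857 and 3059 CPM in SO− embryos, with overlap. None of the 12 was called, where 2.35% of all tested genes were, so that 0 of 12 was near the background. Of the 12, 10 had a log2 fold change above 0 and 2 below, with a median of 0.38. Summed over 7 genes, epiblast markers were at 5585 and 4795 CPM in SO+, with 2821, 2492 and 3519 CPM in SO− embryos, and 2 of 7 were called, both lower in SO− (0.928% of all tested genes were). Dnmt3b alone made up 58.1% to 71.3% of this sum. The genes called were Dnmt3b, a DNA methyltransferase (log2 fold change −0.99 by edgeR, SE 0.15, adjusted p = 0.00392), and Utf1, a chromatin factor of pluripotent cells (−2.08 by edgeR, SE 0.23, adjusted p = 4.06e-04). Fgf5, a growth factor of the epiblast, and Nanog, a pluripotency factor, had log2 fold changes of 0.38 and 0.018 (adjusted p = 0.274 and 0.982 from edgeR). Pou3f1, Otx2 and Tdgf1, the rest of the list, were at −0.84, −0.23 and −0.40 (adjusted p = 0.300, 0.449 and 0.0669 from edgeR). In all, 5 of 7 epiblast markers were lower in SO−, with a median log2 fold change of −0.40. Dnmt3b lost the threshold without SO− embryo 1 (adjusted p = 0.122) and without SO− embryo 2 (0.102, both from edgeR). Of 3 parietal endoderm genes, Pth1r had the highest level, 24.7 and 23.6 CPM in SO+ embryos 1 and 2 and 32.4, 55.5 and 28.4 CPM in SO− embryos 1, 2 and 3, while Thbd had at most 6 reads. Plat was at 3.92 and 0.813 CPM in SO+ embryos 1 and 2 and at 1.21, 0.895 and 5.49 CPM in SO− embryos 1, 2 and 3, highest in SO− embryo 3 and SO+ embryo 1 as for Bmp8b, whereas Pth1r was highest in SO− embryo 2, where Bmp8b had no read. Of 9 genes of maternal decidua and blood, 7 had no read in any embryo, including Prl8a2, Hbb-bs, Hbb-bt and Ptprc. The other 2 were Dcn, a proteoglycan of stroma, at 0.895 to 4.62 CPM, and Hba-a1, with 7 reads in SO+ embryo 2 alone. SO+ embryo 2, highest for Dcn, was also the highest for Ets2 and Rhox9 and not for the other 8 markers, and the part of maternal RNA in the marker levels was not tested.

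**Figure D5:**
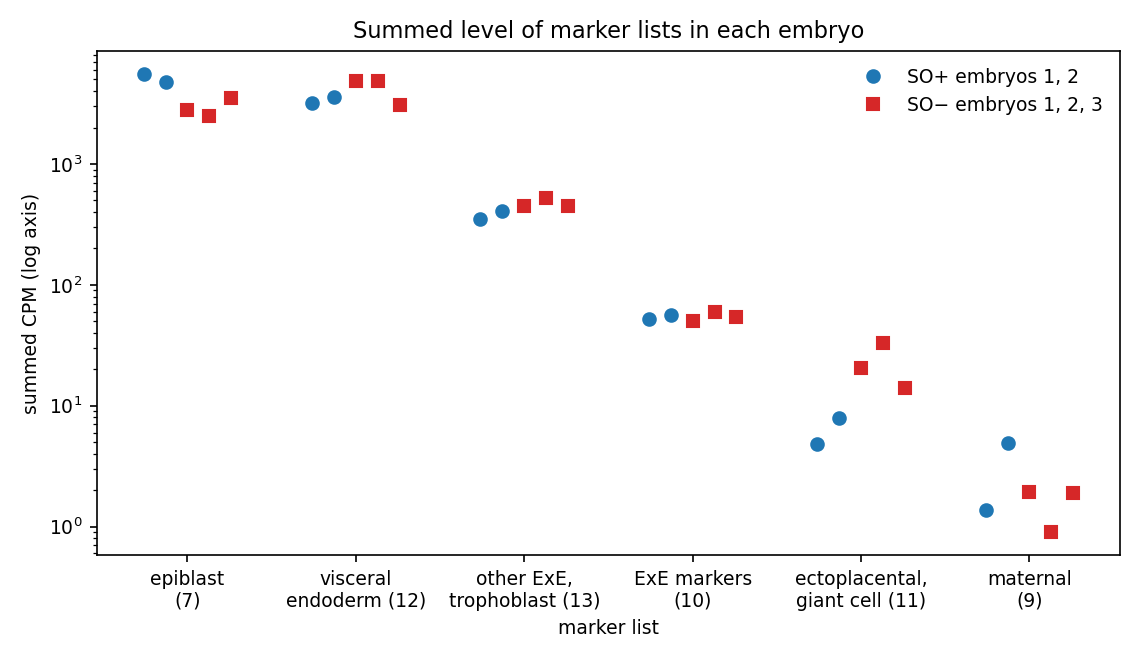
Summed level in CPM (y axis, log scale) of 6 marker lists (x axis, number of genes in brackets) in SO+ embryos 1 and 2 (blue circles) and SO− embryos 1, 2 and 3 (red squares). The 10 ExE markers lay at 50.1 to 59.1 CPM in all embryos, below the epiblast and VE lists, and the higher sum of ectoplacental and giant cell genes in SO− embryos came from Hand1 (without it 3.74 and 5.18 CPM in SO+ and 6.77, 8.95 and 2.15 CPM in SO−).

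Most relatives of the markers had few reads. Of 8 paralogues, Cdx4 and Tfap2b had no read in any embryo, and Bmp8a, which lies near Bmp8b on chromosome 4, had 18, 0, 1, 1 and 0 reads in SO+ embryos 1 and 2 and SO− embryos 1, 2 and 3. Elf3, an epithelial relative of Elf5, was the highest, at 29.5 and 19.7 CPM in SO+ and 22.7, 30.4 and 24.8 CPM in SO− embryos (log2 fold change 0.052, adjusted p = 0.965 from edgeR). Ets1, a relative of Ets2, was at 5.48 and 3.33 CPM in SO+ embryos 1 and 2 and at 3.39, 6.26 and 3.82 CPM in SO− embryos 1, 2 and 3 (log2 fold change −0.072, adjusted p = 0.981 from edgeR). Elf3 and Ets1 were the paralogues tested, and neither was called.

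The mean centred profile of the 5 tested markers was nearly flat, between −0.31 in SO− embryo 1 and 0.21 in SO+ embryo 1 on the log2(CPM + 1) scale. The 10 genes nearest to it, of 9304 whose log2 CPM averaged 3 or more, were D10Jhu81e, Galk1, Dlg1, Maf1, Edc3, Bin1, Hnrnpd, Coro1b, Aldoa and Usp19, at Euclidean distances of 0.0687 to 0.0970 over 5 embryos (median over all candidates 0.574). All 10 were highest in SO+ embryo 1 and lowest in SO− embryo 1, as was the profile by which they were picked. No trophoblast gene of the lists was among them. Many of those could not be, since Tfap2c, Tead4, Gata3, Bmp4, Plac1 and Hand1 averaged below 3 and were not candidates.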

How the data were processed

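RNA was profiled from 2 SO+ and 3 SO− mouse embryos, each the epiblast and VE of 1 embryo, by SmartSeq2. The authors trimmed reads with cutadapt, aligned them to GRCm38/mm10 with STAR and deposited raw read counts per Ensembl gene from HTSeq, without normalization. Whether strand was used is not given in the sources used here.

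Groups and replicate numbers came from the sample titles. Count columns were matched to samples by the library name in their descriptions. Counts were analysed with edgeR 4.0.16 in R 4.3.3 (TMM scaling, filterByExpr, quasi-likelihood test, genotype as the only term, Benjamini-Hochberg adjustment over 12067 genes). The standard error was obtained from the F statistic, as the size of the log2 fold change over the root of F. CPM values use total counts, with a pseudocount of 1 where logged. Exon lengths and positions came from GENCODE M21. DESeq2 1.42.0, other scaling and filters, a replicate block, thinned libraries and left-out embryos were alternatives. The test was checked on simulated counts. Depth ranged from 1117566 to 27538119 counts, and p-values measure the spread between these embryos only.

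The markers and lists were chosen with earlier results of these data known, so no set test or p over the markers is given. Named genes were the 10 markers, called genes and the highest gene of other lists, Rhox genes with reads, Pou5f1 and the 10 genes nearest in profile. Other named genes, such as Esrrb, Tfap2c, Tead4, Gata3, Bmp4, Plac1, Six3, Evx1, Fgf5, Nanog, Ets1, Thbd, Plat, Dcn, Hba-a1, Bmp8a, Xist and the genes without reads, were chosen after their values were seen. Some genes of these lists are not reported here.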

Additional observations from a re-analysis of the deposited data

How the results depend on the processing

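Over 12 alternatives the count of called markers was 0. The count of called genes was 283 in the test as reported, 929 with the replicate number as a block, and between 35 and 573 with 1 embryo left out. The block also turned the log2 fold change of Rhox6 from −0.25 to 0.065 and took that of Bmp8b to −7.76, without a call. Same-numbered embryos are different animals, the block leaves 1 residual degree of freedom, and the deviations of same-numbered embryos correlated at 0.0077 and 0.115 over genes, so the numbers were not taken as pairs. The median log2 fold change of tested markers was −0.25 and lay between −0.35 and 0.00050 over all alternatives, the value nearest 0 coming without SO+ embryo 1 and −0.035 without SO− embryo 1. With 1 embryo left out, log2 fold changes reversed for Cdx2 (−0.035 without SO− embryo 1, range to 1.28), Ascl2 (0.63 and 0.048 without SO+ embryo 1 and SO− embryo 1, range from −1.41), Bmp8b (0.16 and 0.042 without the same embryos, range from −7.67, fitted against counts of 0) and Rhox6 (0.048 without SO− embryo 3, range from −0.58). Ets2 lay between −0.24 and −0.068 in all 12. The ratio of the summed level, 0.998, became 1.26 without Ets2, which was also the marker with the largest share. The cause of these changes was not tested, beyond the fewer embryos or markers each setting holds. Depth limits Elf5, Rhox9, Esx1, Tfap2a and Sox21, whose SO− counts were at most 11 per embryo. It also limits tested markers. In SO− embryos 1, 2 and 3, Bmp8b had 0, 0 and 11 reads and Ascl2 had 2, 3 and 14. Rhox6 had 16, 8 and 11 there, and Cdx2 had 36, 8 and 10.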
